A study of Homo sapiens with 12 samples.

Results

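The 34 genes described here encode the enzymes that build, modify and break down ceramide, with their regulators, and a few enzymes and a transporter of the skin's barrier lipids. They were taken by symbol from the 58735 genes of the deposited table, and each symbol matched 1 identifier. The list is wider than lipid synthesis, since it also holds ceramidases, a sphingomyelinase and the lyase that ends sphingolipid breakdown. RNA came from HaCaT cells, a single immortalised line of human keratinocytes, in 4 groups of 3 libraries: PHGDH-siRNA+Mix, PHGDH-siRNA, Control-siRNA+Mix and Control-siRNA. All cells were transfected with an siRNA, directed against PHGDH or a control, and Mix denotes a stimulation of 24 h whose contents the labels do not name. The study compared cells given PHGDH siRNA with cells given control siRNA, with and without the mix.

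Sphingolipid synthesis starts when serine palmitoyltransferase joins serine to palmitoyl-CoA, and PHGDH opens the pathway by which cells make serine from a glycolytic intermediate. The product is reduced, given a fatty acid chain by a ceramide synthase and desaturated to ceramide, which is then turned into glucosylceramide, sphingomyelin or, by ceramidases, sphingosine. In the epidermis, ceramides with very long chains are oxidised by the lipoxygenases ALOX12B and ALOXE3 and loaded into lamellar granules by the transporter ABCA12, and their release forms the water barrier of the skin.

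Values are FPKM, in which read counts are divided by gene length and by library size. Reads recovered from them came to 16403845 to 20901128 per library. All 8 keratinocyte markers were detected in every library, with summed levels between 1704.9 and 6534 FPKM. Of 8 markers of differentiating keratinocytes, LOR and DSG1 were at 0 in every library and 4 stayed below 1 FPKM. Of 16 markers of endothelial cells, leukocytes, melanocytes and fibroblasts, 14 were below 1 FPKM in every library, the exceptions being COL1A1 and CD14, and TYR and PTPRC were at 0. Replicate 2 of PHGDH-siRNA+Mix and replicate 2 of PHGDH-siRNA stood apart: in both, 287 genes were more than 1 log2 unit above the mean of replicates 1 and 3 of their group and 326 were as far below it, together 4.21% of the 14577 genes tested, against 0.0549% in the control-siRNA groups. Counts of calls, and the values of genes in which these libraries lie furthest out, are given with and without them. In a culture measured in bulk, fewer cells of a type and less RNA per cell cannot be told apart, and since no label tells whether replicates were grown separately, each p-value reflects only how far these particular libraries scatter.

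PHGDH itself was at 19.1, 13.3 and 11.5 FPKM in PHGDH-siRNA+Mix and 31.9, 31.2 and 26.6 FPKM in Control-siRNA+Mix. Without mix it was at 23.7, 20.1 and 16.9 FPKM in PHGDH-siRNA and 36.5, 56.2 and 45.8 FPKM in Control-siRNA. Every PHGDH-siRNA library was thus below every Control-siRNA library of its mix condition, but the difference passed the test in neither comparison alone (adjusted p = 0.2 with mix and 0.128 without mix, limma, Benjamini-Hochberg).

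HaCaT cells held RNA for each step from serine to ceramide and onward to glucosylceramide, sphingomyelin and sphingosine, while ALOX12B and ABCA12, of the barrier lipids, were below 1 FPKM in most libraries. DEGS1, the dihydroceramide desaturase that makes the final ceramide, had the highest mean of the 34 genes over the 12 libraries, 36.3 FPKM, with a range of 28.4 to 42.8 FPKM. UGCG, the glucosylceramide synthase, followed at a mean of 23.2 FPKM, ORMDL2 at 20.2 FPKM, SPTLC1 at 20.0 FPKM, CERS2 at 19.8 FPKM and SPTSSA at 18.1 FPKM. DEGS1 was above each of these 5 genes in every one of the 12 libraries. The library ranges of the 5 overlapped one another, so the spread over libraries does not separate their order. Among the ceramide synthases, CERS2, which makes ceramides with very long chains, stood above CERS5 (5.48 FPKM), CERS6 (3.72 FPKM), CERS4 (1.81 FPKM) and CERS3 (1.66 FPKM), the isoform of the epidermis that handles the longest chains. The lowest CERS2 library, at 14.4 FPKM, was above the highest library of the 4 other ceramide synthases, at 7.28 FPKM.

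The barrier genes lay in the lower part of the range. ALOXE3 averaged 2.39 FPKM and ELOVL4, which elongates very long fatty acids, 2.92 FPKM, but ABCA12 averaged 0.425 FPKM with 25 to 175 reads per library, and ALOX12B 0.338 FPKM with 2 to 77 reads. Low or missing were also SGPP2, a sphingosine phosphate phosphatase (0.0159 to 0.441 FPKM, 1 to 28 reads), SPTSSB, a small subunit of serine palmitoyltransferase (0 to 0.0747 FPKM, at most 5 reads), and DEGS2, which makes phytoceramide (0 to 0.0869 FPKM, at most 7 reads). ACER1, the alkaline ceramidase of differentiated epidermis, had 0 reads in all 12 libraries. At these depths a count of 0 allows up to 0.107 to 0.125 FPKM (3 reads, counting error only), so ACER1 was not detectable rather than absent. These 4 genes were below the filter of a mean of 0.5 FPKM in at least 1 group, and 30 of the 34 genes were tested. ALOX12B passed that filter only through PHGDH-siRNA+Mix, and ABCA12 only through the groups with mix.

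**Figure D1:**
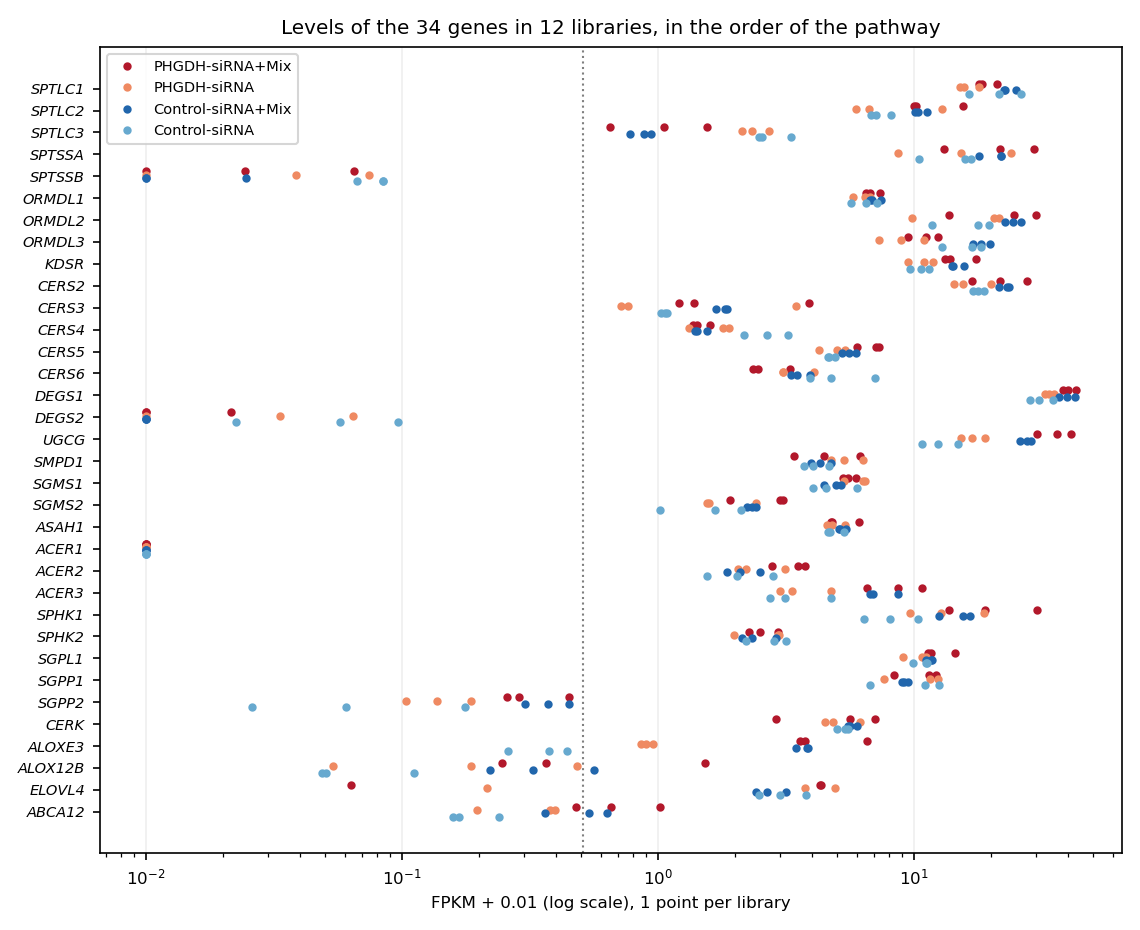
Level of each of the 34 genes in every library, on a log axis of FPKM with a small constant added so that 0 can be drawn, with 1 point per library coloured by group; the dotted line marks a level of 0.5 FPKM. DEGS1 lies at 28.4 to 42.8 FPKM at the top of the range, ABCA12, ALOX12B and SGPP2 lie mostly below the line, and ACER1 is at 0 in every library.

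Setting PHGDH siRNA against control siRNA shows which of these genes differed once the enzyme that supplies serine had been targeted. On the log2 scale of FPKM + 1, the largest difference of the 30 tested genes was in ORMDL3 (ENSG00000172057, hg38 chromosome 17, 39921041 to 39927601, minus strand), one of the ORMDL proteins that hold serine palmitoyltransferase in check when ceramide is plentiful. ORMDL3 was at 12.4, 9.46 and 11.2 FPKM in PHGDH-siRNA+Mix and 19.8, 18.3 and 17.0 FPKM in Control-siRNA+Mix. Without mix it was at 10.9, 7.31 and 8.89 FPKM in PHGDH-siRNA and 12.8, 16.9 and 18.3 FPKM in Control-siRNA. The siRNA groups did not overlap in either mix condition. By the ratio of group means, ALOX12B (1.95 with mix and 3.84 without mix) and ALOXE3 (2.55 without mix), at lower levels, differed more. The ALOX12B groups overlapped in both conditions, on 2 to 77 reads per library. Replicate 2 was its highest library in both PHGDH-siRNA groups, at 1.52 FPKM with mix and 0.475 FPKM without mix. With single libraries left out, its log2 difference with mix went as low as -0.06. Group means of ORMDL3 were 11.0 ± 1.47 FPKM in PHGDH-siRNA+Mix against 18.4 ± 1.37 FPKM in Control-siRNA+Mix, 1.67-fold lower, and 9.03 ± 1.80 FPKM in PHGDH-siRNA against 16.0 ± 2.83 FPKM in Control-siRNA, 1.77-fold lower (SD, n = 3 each).

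On the log2 scale of FPKM + 1, ORMDL3 differed by -0.70 with mix (95% interval -1.06 to -0.33, adjusted p = 0.328) and by -0.76 without mix (-1.13 to -0.39, adjusted p = 0.233), and neither passed the threshold of 0.05 after adjustment over all 14577 genes. Averaged over both mix conditions, a contrast chosen after the data had been seen, ORMDL3 fell by 0.73 (SE 0.118, adjusted p = 0.0285), where 0.487% of all genes passed and 0.233% did so downwards. It was the only one of the 30 tested genes to pass there. The call was lost when genes at low levels were kept in (adjusted p = 0.094), with a replicate block (0.062) and with same-numbered libraries averaged (0.45). It was also lost when any of 8 single libraries was left out: replicates 2 and 3 of Control-siRNA (0.0816 and 0.115), replicates 1, 2 and 3 of Control-siRNA+Mix (0.11, 0.105 and 0.0869), replicate 3 of PHGDH-siRNA (0.0854) and replicates 1 and 3 of PHGDH-siRNA+Mix (0.0566 and 0.0667). Without replicate 2 of both PHGDH-siRNA groups it held (adjusted p = 0.022). PHGDH passed the same contrast (-1.08, SE 0.146, adjusted p = 0.0197), and its call too was lost with same-numbered libraries averaged (adjusted p = 0.45), with no filter (0.056) and without replicate 2 or 3 of Control-siRNA, any replicate of Control-siRNA+Mix or replicate 3 of PHGDH-siRNA (0.0583 to 0.0905).

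Neither of the other ORMDL genes passed the test. ORMDL1 ranged over 5.68 to 7.40 FPKM in the 12 libraries and differed by -0.03 with mix (95% interval -0.27 to 0.21) and -0.02 without mix (-0.27 to 0.22). ORMDL2 was at 29.9, 13.6 and 24.6 FPKM in PHGDH-siRNA+Mix, 21.6, 9.77 and 20.5 FPKM in PHGDH-siRNA, 26.2, 24.5 and 22.6 FPKM in Control-siRNA+Mix and 11.8, 19.6 and 17.8 FPKM in Control-siRNA. Its groups overlapped, and replicate 2 was the lowest library of both PHGDH-siRNA groups.

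Serine palmitoyltransferase, the enzyme that consumes serine, showed no subunit past the test under PHGDH siRNA. SPTLC1, the subunit common to all forms of the enzyme, was at 18.01, 18.4 and 21.0 FPKM in PHGDH-siRNA+Mix and 22.4, 22.7 and 25.0 FPKM in Control-siRNA+Mix. Without mix SPTLC1 was at 15.2, 15.6 and 17.996 FPKM in PHGDH-siRNA and 26.2, 16.3 and 21.5 FPKM in Control-siRNA. The groups did not overlap with mix and overlapped without it, and the differences were -0.28 (95% interval -0.62 to 0.07, adjusted p = 0.977) and -0.35 (-0.69 to -0.01, adjusted p = 0.775), in that order. For the catalytic subunit SPTLC2 the differences were 0.13 with mix (-0.40 to 0.67) and 0.12 without mix (-0.42 to 0.65), and for SPTLC3, the alternative catalytic subunit, 0.14 (-0.22 to 0.50) and -0.15 (-0.51 to 0.20). SPTSSA, the small activating subunit, differed by -0.01 with mix (-0.78 to 0.76) and 0.07 without mix (-0.70 to 0.83).

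UGCG lay higher under PHGDH siRNA whether or not mix was given, and the groups did not overlap. It was at 36.2, 30.2 and 41.2 FPKM in PHGDH-siRNA+Mix against 25.8, 27.6 and 28.8 FPKM in Control-siRNA+Mix. Without mix it was at 15.3, 16.8 and 18.9 FPKM in PHGDH-siRNA against 14.9, 10.7 and 12.4 FPKM in Control-siRNA. The difference was 0.37 with mix (95% interval 0.04 to 0.69, adjusted p = 0.807) and 0.40 without mix (0.08 to 0.73, adjusted p = 0.665), and it did not pass in either. Averaged over both conditions it was 0.38 (SE 0.105, adjusted p = 0.178).

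In neither siRNA comparison did any of the 30 tested genes pass by limma, nor by voom on the recovered reads. Of all genes, 0.0206% passed with mix and 0.0412% without mix. At an unadjusted p below 0.05 limma counted 3 of the 30 genes with mix and 7 without mix, against 5.72% and 6.41% of all genes, and voom counted 3 and 6, against 5.53% and 6.29%. Without replicate 2 of both PHGDH-siRNA groups, 0 of the 30 genes passed in either comparison, where 0.309% and 0.707% of all genes did. ORMDL2 then differed by 0.15 with mix and 0.37 without mix, SPTLC2 by -0.06 and -0.19, and SPTSSA by -0.27 and -0.26. The groups did not overlap in 7 of the 30 genes with mix and 5 without mix, against 14.3% and 10.2% of all genes. The median difference of the 30 genes was 0.07 with mix and 0.04 without mix, beside -0.00 and 0.01 for all genes. CERS6, a ceramide synthase for shorter acyl chains, was at 2.33, 3.28 and 2.46 FPKM in PHGDH-siRNA+Mix, 3.06, 4.06 and 3.08 FPKM in PHGDH-siRNA, 3.49, 3.91 and 3.30 FPKM in Control-siRNA+Mix and 7.01, 3.92 and 4.74 FPKM in Control-siRNA. ACER2, an alkaline ceramidase of the Golgi, was at 2.78, 3.74 and 3.53 FPKM in PHGDH-siRNA+Mix, 2.05, 2.19 and 3.11 FPKM in PHGDH-siRNA, 1.85, 2.50 and 2.09 FPKM in Control-siRNA+Mix and 2.80, 1.55 and 2.03 FPKM in Control-siRNA. With mix the siRNA groups of both genes were apart, CERS6 lower and ACER2 higher under PHGDH siRNA, and without mix they overlapped. Besides ORMDL3, UGCG and SPTLC1, the groups were apart with mix in CERS5 (a difference of 0.24), SGMS1 (0.17), CERS6 (-0.31) and ACER2 (0.47), and without mix in SMPD1 (0.33), ALOXE3 (0.49) and CERS4 (-0.46), with adjusted p between 0.452 and 0.979.

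**Figure D2:**
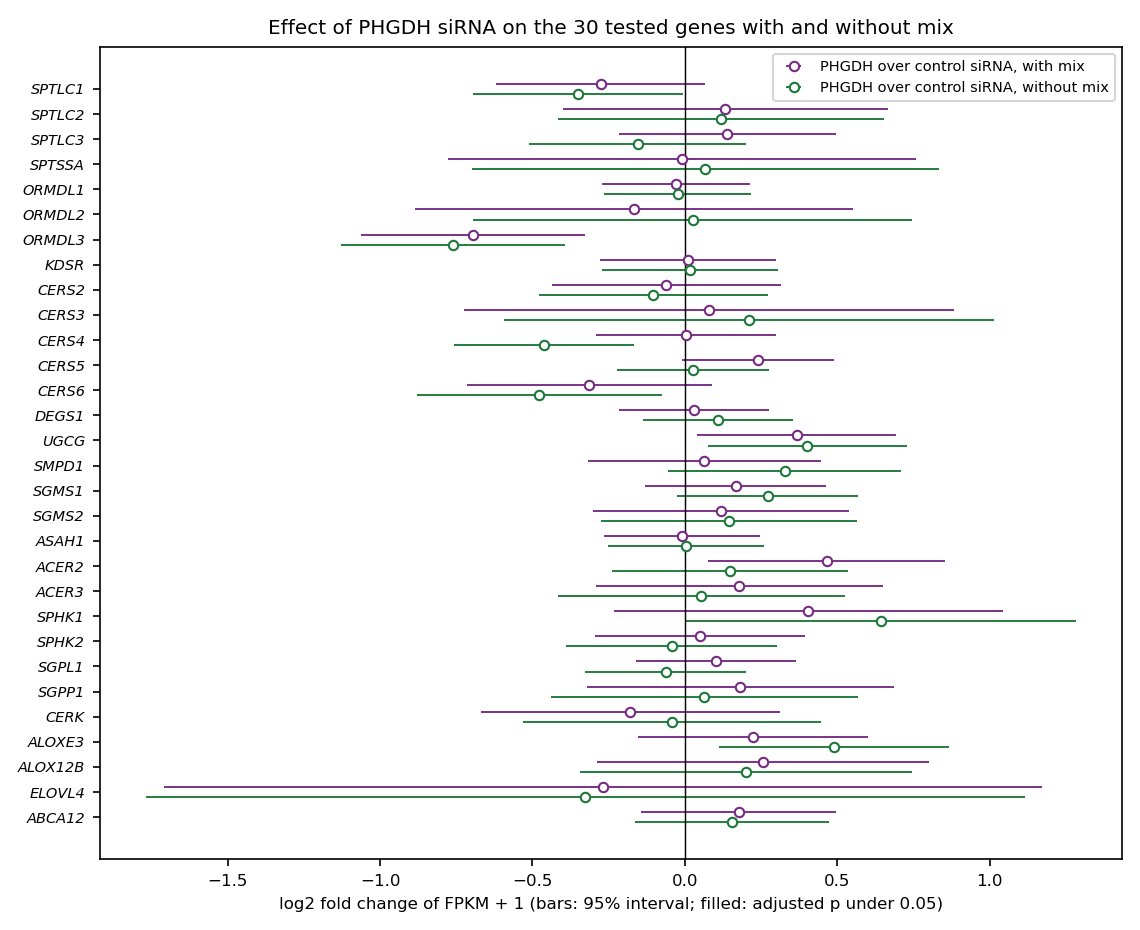
Log2 fold change of FPKM + 1, PHGDH siRNA over control siRNA, for the 30 tested genes with mix (purple) and without mix (green), with 95% intervals; no point is filled because no gene passed an adjusted p of 0.05. ORMDL3 lies lowest of the 30 in both comparisons, at -0.70 and -0.76, and the widest intervals belong to ELOVL4.

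The comparison of cells with mix against cells without it was made within each siRNA arm. ALOXE3, UGCG and ACER3 were higher with mix in both arms and SPTLC3 was lower in both. Of the 30 tested genes, 5 passed between mix and no mix under PHGDH siRNA, 4 up (ALOXE3, UGCG, ACER3 and CERS5) and 1 down (SPTLC3), where 8.86% of all genes passed, 5.22% up and 3.64% down. Under control siRNA 5 passed, 3 up (ALOXE3, UGCG and ACER3) and 2 down (SPTLC3 and CERS4), where 9.54% of all genes passed, 5.62% up and 3.92% down.

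ALOXE3 (ENSG00000179148, hg38 chromosome 17, 8095900 to 8119047, minus strand) encodes an epidermis-type lipoxygenase that acts on the linoleate of barrier ceramides. It was at 6.55, 3.59 and 3.75 FPKM in PHGDH-siRNA+Mix and 0.948, 0.846 and 0.884 FPKM in PHGDH-siRNA. In the control-siRNA arm it was at 3.80, 3.46 and 3.84 FPKM in Control-siRNA+Mix and 0.251, 0.431 and 0.366 FPKM in Control-siRNA. Every library with mix was above every library without it. ALOXE3 rose with mix to a mean of 4.63 ± 1.67 FPKM in PHGDH-siRNA+Mix, against 0.893 ± 0.0516 FPKM in PHGDH-siRNA, a ratio of 5.19 (log2 fold change of FPKM + 1 1.54, SE 0.172, adjusted p = 0.000298). It rose to 3.70 ± 0.211 FPKM in Control-siRNA+Mix, against 0.349 ± 0.0915 FPKM in Control-siRNA, a ratio of 10.6 (1.80, SE 0.172, adjusted p = 7.49e-05). Both calls held under every alternative and without any single library.

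UGCG (ENSG00000148154, hg38 chromosome 9, 111896766 to 111935369, plus strand), whose product glucosylceramide is the form in which barrier ceramides are stored in lamellar granules, rose with mix by a ratio of 2.11 under PHGDH siRNA (35.9 ± 5.50 FPKM in PHGDH-siRNA+Mix against 17.0 ± 1.80 FPKM in PHGDH-siRNA, log2 fold change 1.03, SE 0.148, adjusted p = 0.0016). Under control siRNA the ratio was 2.16 (27.4 ± 1.47 FPKM in Control-siRNA+Mix against 12.7 ± 2.09 FPKM in Control-siRNA, 1.06, SE 0.148, adjusted p = 0.00102). The library values given above show no overlap in either arm, and both calls held under every alternative and without any single library.

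ACER3 (ENSG00000078124, hg38 chromosome 11, 76860867 to 77026797, plus strand), an alkaline ceramidase that frees sphingosine from ceramide, was at 6.54, 10.7 and 8.65 FPKM in PHGDH-siRNA+Mix and 3.00, 4.72 and 3.32 FPKM in PHGDH-siRNA. Under control siRNA it was at 6.90, 6.70 and 8.67 FPKM in Control-siRNA+Mix and 4.74, 2.73 and 3.13 FPKM in Control-siRNA. There was no overlap in either arm, and ACER3 rose by a ratio of 2.35 under PHGDH siRNA (1.04, SE 0.214, adjusted p = 0.0128) and 2.10 under control siRNA (0.91, SE 0.214, adjusted p = 0.0218). The call under PHGDH siRNA was lost without replicate 1 or replicate 3 of PHGDH-siRNA (adjusted p = 0.0541 and 0.0561). That under control siRNA was lost without replicate 2 or 3 of Control-siRNA (0.0868 and 0.0898) or any replicate of Control-siRNA+Mix (0.0565 to 0.102).

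The start regions of these 3 genes, the ones that rose with mix in both arms, are shown as the 250 bases before the RefSeq start (build GRCh38.p14), read 5′ to 3′ on the strand of the gene. ALOXE3 lies at chr17:8118917-8119166 on the minus strand, UGCG at chr9:111896564-111896813 on the plus strand and ACER3 at chr11:76860668-76860917 on the plus strand. The RefSeq starts differ from the starts of the genes in the deposited table. Of the 250 bases, 131 in ALOXE3, 48 in UGCG and 51 in ACER3 thus lie inside the gene as counted here. Capitals mark every match to 4 motifs searched on both strands: for AP-1 the letters TGANTCA, for the GC box GGGCGG, for the box named after them the letters CCAAT, and for the TATA box TATAAA.
ALOXE3: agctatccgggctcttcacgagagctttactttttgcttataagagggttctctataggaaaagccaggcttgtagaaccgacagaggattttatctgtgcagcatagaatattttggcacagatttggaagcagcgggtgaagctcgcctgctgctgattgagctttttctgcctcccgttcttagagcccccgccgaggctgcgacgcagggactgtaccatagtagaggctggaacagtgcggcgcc
UGCG: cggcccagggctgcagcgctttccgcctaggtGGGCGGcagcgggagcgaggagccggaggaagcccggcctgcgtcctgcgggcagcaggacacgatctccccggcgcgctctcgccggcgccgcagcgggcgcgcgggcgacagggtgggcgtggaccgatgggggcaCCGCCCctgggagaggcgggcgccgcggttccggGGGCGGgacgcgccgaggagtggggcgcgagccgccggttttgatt
ACER3: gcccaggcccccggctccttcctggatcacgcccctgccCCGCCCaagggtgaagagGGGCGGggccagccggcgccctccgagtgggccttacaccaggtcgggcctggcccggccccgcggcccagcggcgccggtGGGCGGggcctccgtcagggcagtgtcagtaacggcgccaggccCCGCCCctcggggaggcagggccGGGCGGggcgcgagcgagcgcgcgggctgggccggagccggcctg
ACER3 has 5 GC boxes and UGCG 3, and the ALOXE3 window holds none of the 4 motifs. Of the 34 genes, 28 had a window in the RefSeq table, and 22 of these (78.6%) held a GC box, against 42.6% of all 35116 windows of that length. The AP-1 motif stood in 1 of the 28, upstream of SGMS2 (3.57% against 6.57% of all windows), the CCAAT box in 7 (25.0% against 32.0%), and the TATA box in 0, against 10.7% of all windows. These matches describe the letters in these windows only.

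SPTLC3 (ENSG00000172296, hg38 chromosome 20, 13008979 to 13169103, plus strand) moved the other way. It was at 0.640, 1.54 and 1.05 FPKM in PHGDH-siRNA+Mix and 2.31, 2.12 and 2.71 FPKM in PHGDH-siRNA. Cells given control siRNA had it at 0.768, 0.926 and 0.875 FPKM in Control-siRNA+Mix and 3.30, 2.48 and 2.53 FPKM in Control-siRNA. No library with mix reached the level of a library without it. SPTLC3, which lets serine palmitoyltransferase use a wider range of acyl chains than SPTLC2, was 2.21-fold lower with mix under PHGDH siRNA (-0.72, SE 0.162, adjusted p = 0.019) and 3.23-fold lower under control siRNA (-1.02, SE 0.162, adjusted p = 0.00247). The control-arm call held under every alternative. The call under PHGDH siRNA was lost without replicate 1 or 3 of PHGDH-siRNA (adjusted p = 0.0551 and 0.0817) and without replicate 1 or 3 of PHGDH-siRNA+Mix (0.0566 and 0.0622).

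SPTLC2 had the opposite tendency without passing the test. It was at 10.0, 15.5 and 10.2 FPKM in PHGDH-siRNA+Mix and 5.92, 12.9 and 6.66 FPKM in PHGDH-siRNA. With control siRNA the levels were 10.4, 10.1 and 11.2 FPKM in Control-siRNA+Mix and 8.11, 6.78 and 7.10 FPKM in Control-siRNA. The control groups did not overlap, and the PHGDH-siRNA groups overlapped through replicate 2 of PHGDH-siRNA. The difference was 0.49 under PHGDH siRNA (SE 0.242, adjusted p = 0.272) and 0.48 under control siRNA (adjusted p = 0.29). Without replicate 2 of both PHGDH-siRNA groups it was 0.61 (adjusted p = 0.00557) and 0.48 (adjusted p = 0.00531).

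Neither of the remaining tested subunits, SPTSSA and SPTLC1, passed between mix and no mix. SPTSSA was at 13.1, 29.5 and 21.7 FPKM in PHGDH-siRNA+Mix, 8.63, 23.9 and 15.3 FPKM in PHGDH-siRNA, 18.002, 21.8 and 21.9 FPKM in Control-siRNA+Mix and 16.7, 10.4 and 15.8 FPKM in Control-siRNA. Its mix difference was 0.44 under PHGDH siRNA and 0.52 under control siRNA (adjusted p = 0.524 and 0.45). The SPTSSA groups overlapped under PHGDH siRNA and were apart under control siRNA. SPTLC1 differed by 0.22 and 0.15 (adjusted p = 0.458 and 0.673). Its groups were narrowly apart under PHGDH siRNA, with a lowest library of 18.01 FPKM in PHGDH-siRNA+Mix against a highest of 17.996 FPKM in PHGDH-siRNA. Under control siRNA they overlapped. Among the regulators, ORMDL1 differed by 0.10 and 0.11, ORMDL2 by 0.38 and 0.57 and ORMDL3 by 0.27 and 0.20 (adjusted p between 0.355 and 0.667). SPTSSB, at no more than 5 reads in any library, was too sparse to compare.

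KDSR, the reductase of the second step, was at 17.5, 13.2 and 13.8 FPKM in PHGDH-siRNA+Mix and 10.9, 11.8 and 9.45 FPKM in PHGDH-siRNA. In the control-siRNA arm it was at 15.7, 14.0 and 14.2 FPKM in Control-siRNA+Mix and 11.5, 10.6 and 9.62 FPKM in Control-siRNA. Mix and no mix did not overlap in either arm, with differences of 0.43 under PHGDH siRNA (95% interval 0.14 to 0.72) and 0.44 under control siRNA (0.15 to 0.73), which just missed the threshold (adjusted p = 0.07 and 0.0621). Without replicate 2 of both PHGDH-siRNA groups they passed (0.57, adjusted p = 0.022, and 0.44, adjusted p = 0.0226).

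Of the 5 ceramide synthases, CERS5 passed upwards under PHGDH siRNA and CERS4 downwards under control siRNA. CERS4 (ENSG00000090661, hg38 chromosome 19, 8206736 to 8262421, plus strand) was at 1.41, 1.36 and 1.59 FPKM in PHGDH-siRNA+Mix and 1.79, 1.89 and 1.31 FPKM in PHGDH-siRNA, which overlapped. Under control siRNA it was at 1.54, 1.41 and 1.38 FPKM in Control-siRNA+Mix and 2.16, 3.22 and 2.65 FPKM in Control-siRNA, which did not. CERS4 fell with mix under control siRNA (-0.58, SE 0.134, adjusted p = 0.0205), a call lost without replicate 2 or 3 of Control-siRNA (0.0776 and 0.0726) or any replicate of Control-siRNA+Mix (0.0604 to 0.0857). Under PHGDH siRNA its difference was -0.11 (95% interval -0.41 to 0.18, adjusted p = 0.691).

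CERS5 (ENSG00000139624, hg38 chromosome 12, 50129306 to 50167533, minus strand), a synthase of ceramides with shorter acyl chains, was at 7.07, 7.28 and 5.96 FPKM in PHGDH-siRNA+Mix and 4.98, 5.35 and 4.25 FPKM in PHGDH-siRNA. Cells given control siRNA had it at 5.94, 5.22 and 5.55 FPKM in Control-siRNA+Mix and 4.65, 4.92 and 4.62 FPKM in Control-siRNA. The groups were apart in both arms. CERS5 rose with mix by a ratio of 1.39 under PHGDH siRNA (0.41, SE 0.113, adjusted p = 0.0483), and its difference under control siRNA was 0.20 (adjusted p = 0.363). The PHGDH-siRNA call sat at the threshold: it held without replicate 1 of Control-siRNA (0.0474) or replicate 2 of PHGDH-siRNA (0.0334) and was lost without any of the other 10 libraries (0.0512 to 0.178).

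CERS2 was at 27.7, 16.9 and 21.7 FPKM in PHGDH-siRNA+Mix, 20.1, 14.4 and 15.6 FPKM in PHGDH-siRNA, 23.4, 23.0 and 21.5 FPKM in Control-siRNA+Mix and 17.7, 18.7 and 17.0 FPKM in Control-siRNA. The mix difference was 0.37 under PHGDH siRNA (adjusted p = 0.232, groups overlapping) and 0.33 under control siRNA (adjusted p = 0.301, groups apart). CERS6 differed the other way, by -0.26 and -0.42 (adjusted p = 0.467 and 0.204). CERS3, whose spread came from the replicate 2 libraries, is described with them.

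At the last step of ceramide synthesis, DEGS1 was at 40.0, 38.4 and 42.8 FPKM in PHGDH-siRNA+Mix and 35.2, 32.4 and 33.6 FPKM in PHGDH-siRNA. With control siRNA the levels were 42.5, 36.7 and 39.6 FPKM in Control-siRNA+Mix and 34.8, 30.7 and 28.4 FPKM in Control-siRNA. The groups were apart in both arms but the differences, 0.25 (adjusted p = 0.218) and 0.33 (adjusted p = 0.0982), did not pass. SGMS2, a sphingomyelin synthase of the plasma membrane, differed by 0.36 and 0.38 (adjusted p = 0.316 and 0.279), while SGMS1, SMPD1, which breaks sphingomyelin down in lysosomes, and ASAH1, the acid ceramidase, lay between -0.21 and 0.08 in both arms. ACER2 differed by 0.34 under PHGDH siRNA and 0.02 under control siRNA (adjusted p = 0.298 and 0.967).

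Among the enzymes that handle sphingosine, SPHK1, the kinase that makes sphingosine phosphate, was at 30.2, 13.7 and 19.0 FPKM in PHGDH-siRNA+Mix and 18.7, 9.67 and 12.7 FPKM in PHGDH-siRNA. In the control-siRNA arm it was at 16.6, 15.5 and 12.6 FPKM in Control-siRNA+Mix and 6.35, 10.3 and 8.05 FPKM in Control-siRNA. The control groups did not overlap and the PHGDH-siRNA groups did. The mix difference was 0.56 under PHGDH siRNA (adjusted p = 0.3) and 0.79 under control siRNA (95% interval 0.16 to 1.43, adjusted p = 0.126). SPHK2, the lyase SGPL1, the phosphatase SGPP1 and the ceramide kinase CERK lay between -0.11 and 0.25 in both arms, and none passed.

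ABCA12, the lamellar granule transporter, was at 0.470, 1.00 and 0.643 FPKM in PHGDH-siRNA+Mix and 0.186, 0.387 and 0.370 FPKM in PHGDH-siRNA. Under control siRNA it was at 0.354, 0.526 and 0.625 FPKM in Control-siRNA+Mix and 0.230, 0.149 and 0.157 FPKM in Control-siRNA. Every library with mix was above every library without it in its arm, with ratios of 2.24 under PHGDH siRNA and 2.81 under control siRNA. ABCA12 passed the filter only through the groups with mix, so this separation is a description. On the log2 scale, which compresses changes at such low levels, the differences were 0.37 (adjusted p = 0.161) and 0.35 (adjusted p = 0.185), and they did not pass. ALOX12B, with at most 77 reads, was at 0.356, 1.52 and 0.236 FPKM in PHGDH-siRNA+Mix, 0.0440, 0.475 and 0.176 FPKM in PHGDH-siRNA, 0.314, 0.555 and 0.210 FPKM in Control-siRNA+Mix and 0.0404, 0.102 and 0.0385 FPKM in Control-siRNA, and did not pass in either arm (adjusted p = 0.384 and 0.475). SGPP2 was at 0.247, 0.275 and 0.438 FPKM in PHGDH-siRNA+Mix, 0.127, 0.0937 and 0.177 FPKM in PHGDH-siRNA, 0.361, 0.294 and 0.441 FPKM in Control-siRNA+Mix and 0.166, 0.0503 and 0.0159 FPKM in Control-siRNA. Its mix groups did not overlap in either arm, at 1 to 28 reads per library and below the filter.

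**Figure D3:**
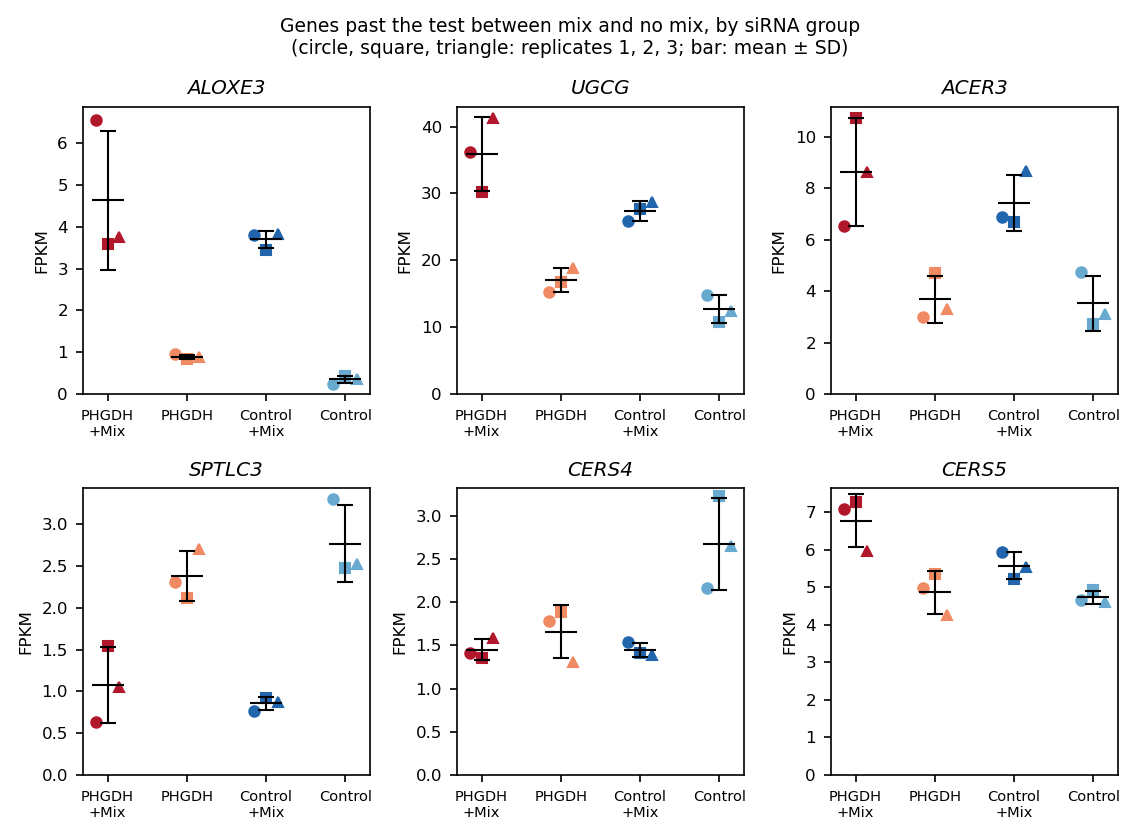
FPKM in each library of the 6 genes that passed between mix and no mix in at least 1 siRNA arm, with the mean and SD of 3 libraries per group. ALOXE3, UGCG and ACER3 are higher with mix in both arms, SPTLC3 is lower in both, CERS5 passed under PHGDH siRNA and CERS4 under control siRNA.

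Without replicate 2 of both PHGDH-siRNA groups, 8 of the 30 tested genes passed between mix and no mix under PHGDH siRNA and 11 under control siRNA, in place of 5 and 5, where 15.1% and 21.0% of all genes passed. The control-siRNA libraries all stayed in, so differences under control siRNA were the same. Only the spread estimated over all groups and the adjustment moved there. KDSR, SPTLC2 and CERS3 passed in addition in both arms. DEGS1 (0.33, adjusted p = 0.0426), ORMDL2 (0.57, adjusted p = 0.0433) and SPHK1 (0.79, adjusted p = 0.0368) did so under control siRNA, and their differences under PHGDH siRNA were 0.26, 0.35 and 0.60 (adjusted p between 0.196 and 0.316). CERS2 then differed by 0.45 under PHGDH siRNA and 0.33 under control siRNA (adjusted p = 0.074 and 0.0864), and SPTSSA by 0.51 and 0.52 (adjusted p = 0.337 and 0.203). With the replicate as a block within the PHGDH-siRNA arms, where same-numbered libraries deviated together, the count under PHGDH siRNA was 10, where 22.5% of all genes passed, and CERS2 (adjusted p = 0.00919), SPTLC2 (0.00774), KDSR (0.0186), CERS3 (0.0291) and SPHK1 (0.0313) passed in addition. The groups did not overlap in 10 genes under PHGDH siRNA, 9 up and 1 down, against 21.5% of all genes, 11.3% up and 10.3% down. Under control siRNA they did not overlap in 19 genes, 16 up and 3 down, against 37.8% of all genes, 19.1% up and 18.7% down. The genes up include ABCA12 in both arms and ALOX12B under control siRNA, which passed the filter only through groups with mix. The median mix difference of the 30 genes was 0.29 under PHGDH siRNA and 0.20 under control siRNA, beside 0.00 and 0.00 for all genes. Some calls also depended on the setting: without the filter ACER3 and CERS4 under control siRNA (adjusted p = 0.064 and 0.0508) and SPTLC3 and CERS5 under PHGDH siRNA (0.055 and 0.111) were lost. With the 2 PHGDH-siRNA groups fitted alone, ACER3, SPTLC3 and CERS5 were lost (0.0926, 0.155 and 0.246), and CERS5 was lost by voom (0.106) and with the replicate block over all groups (0.0567). Summed keratinocyte markers were also higher with mix under control siRNA, at 3704 to 4050 FPKM in Control-siRNA+Mix against 1704.9 to 2579 FPKM in Control-siRNA. Under PHGDH siRNA the groups overlapped through replicate 2 of PHGDH-siRNA, at 3774 to 6534 FPKM in PHGDH-siRNA+Mix against 2134 to 6168 FPKM in PHGDH-siRNA. The part of these markers in these results was not tested. Markers of differentiating keratinocytes summed to 24.0 to 28.6 FPKM in PHGDH-siRNA+Mix against 18.9 to 35.6 FPKM in PHGDH-siRNA, and to 28.0 to 30.3 FPKM in Control-siRNA+Mix against 22.1 to 36.8 FPKM in Control-siRNA.

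**Figure D4:**
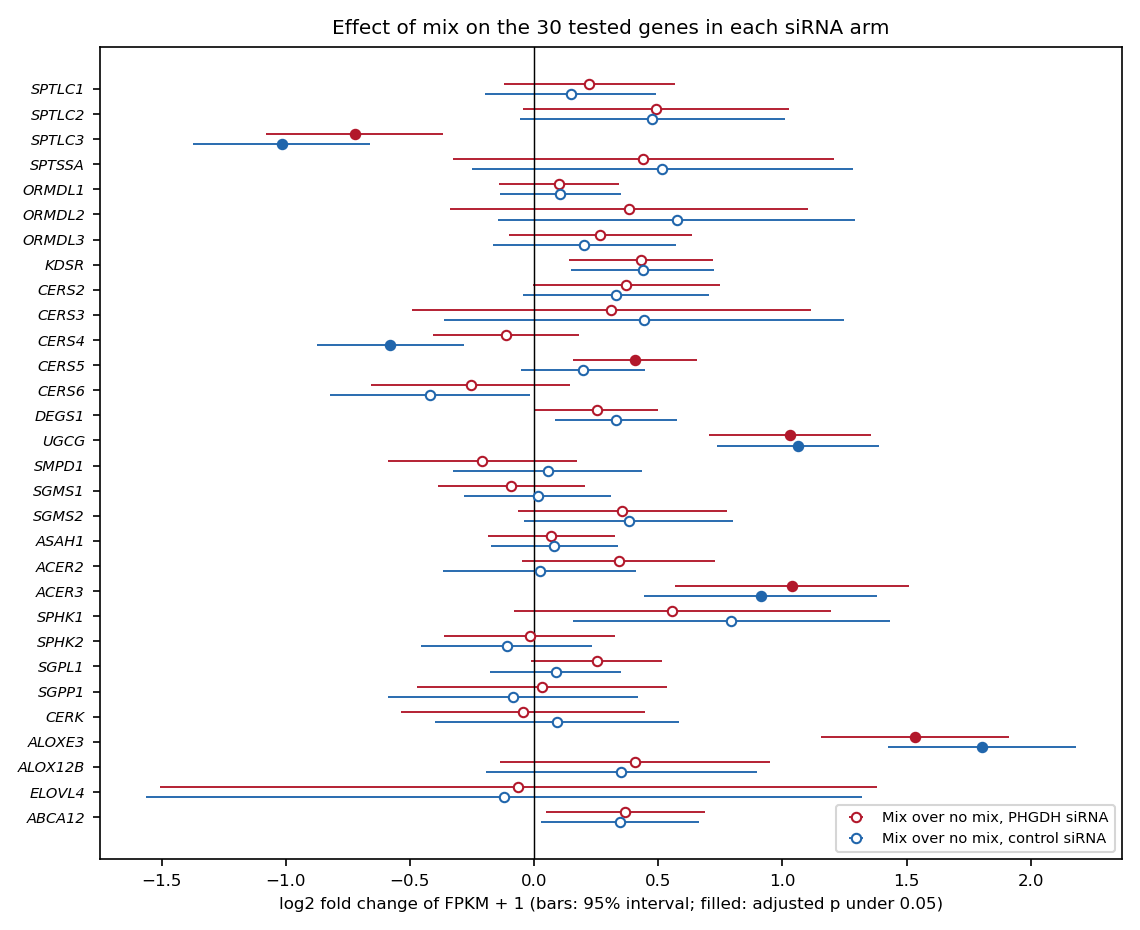
Log2 fold change of FPKM + 1, mix over no mix, for the 30 tested genes under PHGDH siRNA (red) and control siRNA (blue), with 95% intervals and filled points where the adjusted p was under 0.05. ALOXE3 lies highest in both arms, at 1.54 and 1.80, and SPTLC3 lowest, at -0.72 and -1.02.

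Whether the response to mix differed between the siRNA arms was tested by the interaction, which takes the mix difference of the control-siRNA arm away from that of the PHGDH-siRNA arm. None of the 30 genes passed by limma or by voom, where 0.0% of all genes passed. At an unadjusted p below 0.05 limma counted 1 of the 30 genes and 1.72% of all genes, and voom counted 2, against 1.34%. The single gene by limma was CERS4, with a difference of 0.47 (95% interval 0.05 to 0.88, adjusted p = 1), chosen here after its value was seen. ALOXE3, whose ratio was 5.19 under PHGDH siRNA and 10.6 under control siRNA, differed by -0.27 on this scale (-0.80 to 0.27), and UGCG by -0.03 (-0.50 to 0.43). ACER3 differed by 0.13 (-0.54 to 0.79) and SPTLC3 by 0.29 (-0.21 to 0.80). On this scale, the intervals show how large a difference between the arms these libraries could not resolve. The scale compresses changes at low levels, so the interval of ALOXE3 does not bound the difference between its ratios.

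The replicate 2 libraries of the PHGDH-siRNA groups set the spread of several of these genes. ELOVL4 was at 4.30, 0.0533 and 4.32 FPKM in PHGDH-siRNA+Mix and 3.75, 0.206 and 4.90 FPKM in PHGDH-siRNA, where replicate 2 rested on 3 and 12 reads. In the control groups it was at 2.42, 3.15 and 2.66 FPKM in Control-siRNA+Mix and 3.79, 2.48 and 2.99 FPKM in Control-siRNA, with 128 to 208 reads. ELOVL4, which supplies the very long fatty acids of barrier ceramides, was thus almost undetected in both replicate 2 libraries and in none of the other 10. Averaged over both mix conditions it differed between the siRNAs by -0.30 (adjusted p = 0.849), and by 0.45 without these libraries (adjusted p = 0.0625). Its mix difference was -0.06 under PHGDH siRNA and -0.12 under control siRNA (adjusted p = 0.975 and 0.951).

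CERS3 went the opposite way, at 1.20, 3.88 and 1.37 FPKM in PHGDH-siRNA+Mix, 0.706, 3.45 and 0.753 FPKM in PHGDH-siRNA, 1.68, 1.82 and 1.85 FPKM in Control-siRNA+Mix and 1.06, 1.01 and 1.07 FPKM in Control-siRNA. Its replicate 2 libraries were the highest of the 12. With all libraries its mix difference was 0.31 under PHGDH siRNA and 0.44 under control siRNA (adjusted p = 0.687 and 0.561), and without replicate 2 of both PHGDH-siRNA groups it was 0.40 and 0.44 (adjusted p = 0.0205 and 0.00384). ELOVL4 and CERS3 were the only 2 of the 30 tested genes more than 1 log2 unit from the mean of replicates 1 and 3 in both arms. SPTSSA (0.77 with mix and 0.99 without mix) and SPTLC2 (0.57 and 0.93) were also more than 0.5 above it in both arms, and ORMDL2 (-0.94 and -1.03) and SPHK1 (-0.76 and -0.62) more than 0.5 below. The summed keratinocyte markers were highest in the same libraries, at 6534 FPKM in replicate 2 of PHGDH-siRNA+Mix and 6168 FPKM in replicate 2 of PHGDH-siRNA, against 1704.9 to 4345 FPKM in the other 10, and their part in these values was not tested.

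**Figure D5:**
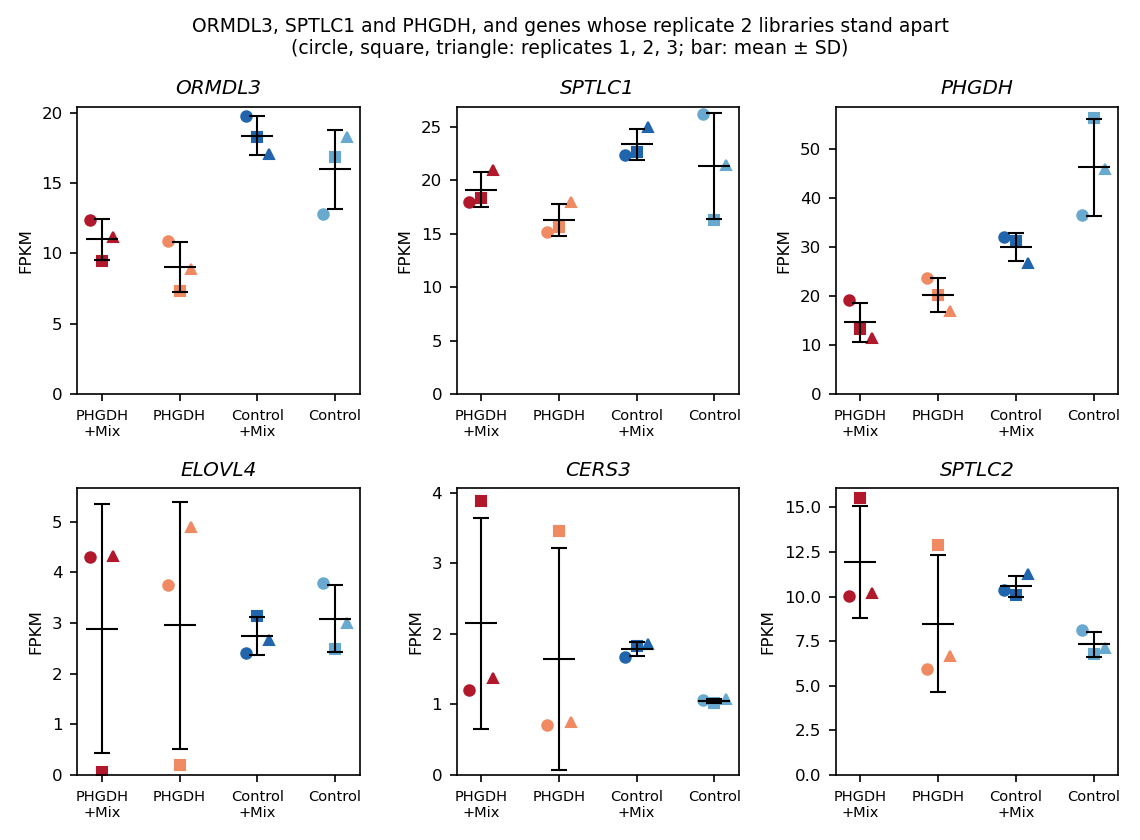
FPKM in each library of ORMDL3, SPTLC1 and PHGDH (top) and of ELOVL4, CERS3 and SPTLC2 (bottom), with the mean and SD of 3 libraries per group. ORMDL3 is lower under PHGDH siRNA in both mix conditions, and the replicate 2 libraries (squares) of both PHGDH-siRNA groups are far below the rest in ELOVL4 and above them in CERS3 and SPTLC2.

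Other genes of sphingolipid and serine metabolism were counted beside the 34. Of 93 such genes besides PHGDH, 71 were tested. None passed in either siRNA comparison (0 at an adjusted p under 0.05 by limma), where 0.0206% of all genes passed with mix and 0.0412% without mix. Without replicate 2 of both PHGDH-siRNA groups 0 passed with mix and 3 without mix, where 0.309% and 0.707% of all genes did. Averaged over both mix conditions, 0 passed between the siRNAs with all libraries, where 0.487% of all genes did. Without the replicate 2 pair 7 passed in that contrast, where 3.55% of all genes did. Between mix and no mix, 5 passed under PHGDH siRNA (2 up and 3 down) and 6 under control siRNA (3 up and 3 down), beside the 8.86% and 9.54% of all genes. Those up under control siRNA include S1PR1, which passed the filter only through the groups with mix. Without the replicate 2 pair the counts were 14 and 23, beside 15.1% and 21.0% of all genes. With all libraries, the 23 tested genes of very long chain fatty acid and barrier lipid metabolism had 0 calls in both.

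ARSA, the lysosomal sulfatase that degrades sulfatide, was at 15.3, 13.7 and 13.6 FPKM in PHGDH-siRNA+Mix and 8.38, 9.49 and 7.57 FPKM in PHGDH-siRNA. Cells given control siRNA had it at 15.7, 15.2 and 13.5 FPKM in Control-siRNA+Mix and 5.29, 8.36 and 7.64 FPKM in Control-siRNA. The groups did not overlap, and ARSA rose by 0.68 under PHGDH siRNA (adjusted p = 0.0181) and 0.98 under control siRNA (adjusted p = 0.002). NEU1, a lysosomal sialidase, rose by 0.62 and 0.57 (adjusted p = 0.0293 and 0.0399). S1PR5, a receptor for sphingosine phosphate, fell by 0.78 on the log2 scale under PHGDH siRNA and 1.09 under control siRNA (adjusted p = 0.0328 and 0.0055), and S1PR1, another such receptor, differed by 0.68 under control siRNA (adjusted p = 0.0278). S1PR1 passed the filter only through the groups with mix, so this call is a description. Under control siRNA its levels were 0.659, 0.667 and 0.835 FPKM in Control-siRNA+Mix against 0.0425, 0.0428 and 0.132 FPKM in Control-siRNA.

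ALDH3A2, the fatty aldehyde dehydrogenase that acts at the end of sphingosine phosphate breakdown, was at 13.9, 20.9 and 18.3 FPKM in PHGDH-siRNA+Mix and 24.7, 28.7 and 24.5 FPKM in PHGDH-siRNA. With control siRNA the levels were 20.9, 20.8 and 21.0 FPKM in Control-siRNA+Mix and 40.8, 33.5 and 35.8 FPKM in Control-siRNA. No library with mix reached one without it in its arm, and ALDH3A2 fell by 0.54 on the log2 scale under PHGDH siRNA (adjusted p = 0.0407) and by 0.78 under control siRNA (adjusted p = 0.0065). SHMT1, which interconverts serine and glycine, fell by 0.58 and 0.62 (adjusted p = 0.0289 and 0.0207). Of these calls, those of ARSA, S1PR5 and ALDH3A2 under control siRNA held without any single library. Each of the others was lost in at least 4 of the 12 fits that left out a single library, that of ALDH3A2 under PHGDH siRNA in 9.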

How the data were processed

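RNA of 12 HaCaT samples was deposited as 1 table of FPKM values made by the authors. Per the submitters' processing notes the tools were featureCounts 1.5.0-p3, HISAT2 2.0.5 and CASAVA, on build hg38, with no settings stated. Strand use in the counting is not given in the sources used here. If strand was not used, reads from exon bases shared by genes on opposite strands could not be told apart. Exons of 14 of the 34 genes overlap a gene on the opposite strand in GENCODE 29. Of the 7 genes called, only ACER3 does, over 35 bases. ORMDL2 shares 920 exon bases with DNAJC14 and CERS2 shares 948 with SETDB1. SPHK2 shares 661 with DBP and 246 with RPL18, which was at a mean of 234 FPKM. The deposited gene lengths and the FPKM gave back whole reads for 100% of values up to 200 reads (within 0.05 reads).

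The 34 genes, the lists, comparisons and named genes were chosen with earlier results of these data known. The values turned out as FPKM, so limma 3.58.1 (R 4.3.3, trend and robust) was fitted to log2(FPKM + 1) of the 14577 genes with a mean of at least 0.5 FPKM in a group, with 1 mean per group over 12 libraries (8 residual degrees of freedom). This scale understates changes of genes at low levels. Tests were two-sided, with Benjamini-Hochberg adjustment over all genes and a threshold of 0.05. Named genes were those past the test, a fixed panel of the pathway and, picked with their values in view, ORMDL2, CERS6, ACER2, SPHK1, ELOVL4, ALOX12B and SGPP2.

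To check whether equal replicate numbers mark pairs, deviations from group means were correlated. Among all groups 5 of 18 pairs exceeded 0.1, and no pairing was assumed. Between the PHGDH-siRNA arms the correlations were 0.69, 0.775 and 0.459, so a block within those arms was fitted as well, although the deviation of replicate 2 alone raises all 3. Alternatives were a pseudocount of 0.1, no filter, median-ratio scaling, voom on the recovered reads, groups compared alone, a replicate block, no robust option, and each library left out. The fit was also tested on simulated counts of independent libraries with the same scatter setting for every gene. These held no outlying replicate 2 libraries, so that test does not cover this feature of the data.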

Additional observations from a re-analysis of the deposited data

How the results depend on the processing

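Of 752 values of 37 results followed on single genes, 626 kept their side of the threshold, 117 no longer passed and 9 newly passed, and none of these 37 changed sign. Over all 180 differences of the 30 tested genes in the 6 contrasts, 78 changed sign under at least 1 alternative. None of the 78 had passed the test, and in size they were at most 0.33. Among them were the averaged siRNA difference of ELOVL4 (-0.30, and 0.45 without replicate 2 of both PHGDH-siRNA arms), that of ORMDL2 with mix (-0.39 to 0.15) and that of SPTLC2 without mix (-0.19 to 0.31). The mix difference of CERS3 under PHGDH siRNA, 0.31, ranged over -0.05 to 0.77 and passed without replicate 2 of both PHGDH-siRNA arms (0.40). The count of genes passed in the siRNA comparisons and in the interaction was 0 under every alternative run. For mix under PHGDH siRNA it was 5, against 3 without the filter, 2 with the groups compared alone, 10 with the replicate block within the PHGDH-siRNA arms, 8 without replicate 2 of both PHGDH-siRNA arms and 2 to 7 with single libraries left out. For mix under control siRNA it was 5, against 3 without the filter, 10 with the groups compared alone, 11 without the replicate 2 pair and 3 to 6 with single libraries left out. For PHGDH siRNA averaged over the mix conditions it was 1, against 0 without the filter, 0 with the replicate block and 0 with same-numbered libraries averaged, and 0 to 1 with single libraries left out. The replicate block over all groups gave 4 under PHGDH siRNA and 5 under control siRNA. The share of all genes passed moved with the setting too. Without the replicate 2 pair it went from 8.86% to 15.1% under PHGDH siRNA and from 9.54% to 21.0% under control siRNA. With the block within the PHGDH-siRNA arms it was 22.5% under PHGDH siRNA. Shares for the other settings listed here are not given, so those counts cannot be read as particular to these genes. Under control siRNA, leaving out PHGDH-siRNA libraries kept the mix differences of SPTLC2 (0.48), CERS3 (0.44) and KDSR (0.44) as they were. Only the spread, estimated over all groups together, and the adjustment over all genes were then different. The cause of the other changes was not tested. Median-ratio scaling left every count of calls as it was. Groups of 3 libraries limit the precision, and genes below 1 FPKM rest on few reads.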
